A study of Homo sapiens with 20 samples.

Results

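The comparison set wild-type MHCC-97H cells held in a 47 °C water bath for 15 min (R-47) against wild-type MHCC-97H cells held in a 37 °C bath for 15 min (R-37). All libraries labelled R-47 or R-37 were used, 5 per group, which makes 10 of the 20 libraries of the series. MHCC-97H is an established human hepatocellular carcinoma line, and after the bath both groups spent 24 h in an ordinary cell incubator before RNA was taken. The other 10 libraries come from NFS1-knockdown cells and from NC cells, which are labelled wild type, and all of those went through the 47 °C bath. The series title places the work in liver cancer after microwave ablation, in which tumour tissue is heated, and the comparison asks which transcripts of these cells differ a day after a short heat exposure. R-47 and R-37 share the line, the genotype and the time in the incubator, and they differ in the bath temperature. All 10 libraries are of 1 line. No label says that replicates were separate cultures. The p-values therefore rest on the differences among these libraries alone, and those may be technical.

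Heat unfolds proteins, and cells answer through heat shock factor 1 (HSF1), which binds repeated GAA units in DNA and switches on the chaperones of the HSP70, HSP90 and small heat shock families. That response rises within minutes to hours of heating and is then shut off again, in part by the chaperones binding HSF1. The endoplasmic reticulum has a separate response, run by ATF6, XBP1 and ATF4, for proteins that misfold in its lumen. Liver cancer cells keep part of the secretory programme of hepatocytes, whose proteins fold in that lumen, so both chaperone systems are of interest here.

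The cells carried the transcripts expected from the label only in part. Of 19 hepatocyte and hepatoma markers in the table, 15 were expressed highly enough to be tested and 1 was at 0 in all 10 libraries. KRT8, a keratin of liver epithelium, had 4173 ± 167 CPM (read counts scaled to library depth) in R-47 and 4420 ± 329 CPM in R-37 (SD, n = 5 each), and the nuclear receptor HNF4A, a regulator of hepatocyte identity, had 50.9 ± 2.79 CPM in R-47 and 41.8 ± 2.92 CPM in R-37. ALB, the gene of serum albumin, was low in both groups, at 3.86 to 5.49 CPM in R-47 and 11.1 to 14.8 CPM in R-37. AFP, the fetal counterpart of albumin, had 3.16 to 4.03 CPM in R-47 and 3.52 to 4.50 CPM in R-37. Markers of blood, stromal and endothelial cells were partly near 0: at most 10 counts were seen in any library for 12 of 18 leukocyte markers, 6 of 12 fibroblast markers and 5 of 9 endothelial markers. PTPRC, the pan-leukocyte phosphatase CD45, had 18 counts in R-47 and 19 counts in R-37 summed over 5 libraries each, and CD2, a T-cell adhesion receptor, was at 0 in all 10. TYROBP, a signalling adaptor of myeloid cells, had 50 counts in R-47 and 4 counts in R-37 when summed likewise, and CD163, a scavenger receptor of macrophages, had 21 counts in R-47 and 5 counts in R-37. LYZ, also a myeloid marker of the list, went the other way, with 17 counts in R-47 and 29 counts in R-37. CSF1R had 2 counts in R-47 and 3 counts in R-37, and FCER1G had 2 counts in each group. Of the 5 leukocyte markers tested, 3 rose and 0 fell: CD68, ITGAM and CD79A. The lowest log2 fold change among the 5 was -0.35 and was not called. Higher calls covered 11.9% of all genes tested. The summed leukocyte list was 145 to 185 CPM in R-47 and 77.1 to 86.9 CPM in R-37, and most of that sum was CD68. The summed endothelial list was 68.9 to 76.6 CPM in R-47 and 62.9 to 73.7 CPM in R-37, and of its 3 tested genes PECAM1 and LYVE1 rose and KDR fell. The calls of PECAM1 and KDR were lost when single libraries were left out (edgeR adjusted p of up to 0.0765 and 0.0625). The part of other cells in any result was not tested. In bulk RNA, fewer cells that express a gene and less of its RNA per cell cannot be told apart.

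The libraries were deep and even, with 35431078 to 39094039 counts in R-47 and 32219946 to 39689939 counts in R-37. The scaling factors of the trimmed mean of M values (TMM) did not overlap, at 1.02 to 1.03 in R-47 and 0.965 to 0.981 in R-37, so the choice of scaling bears on how many genes are called in each direction. The 10 most abundant genes took 7.69 to 8.02% of counts in R-47 and 7.99 to 9.21% in R-37. The first principal component of the CPM values, which carried 46.1% of the variance, separated the groups.

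Heating to 47 °C was followed, a day later, by changes in many genes, most of them small. Of 14344 genes tested with edgeR's quasi-likelihood test, 3604 passed a Benjamini-Hochberg adjusted p of 0.05, or 25.1%. Of these, 1714 were higher in R-47 (11.9%) and 1890 were lower (13.2%). The split depended on scaling: with library size alone, 2976 genes were higher (20.7%) and 1014 lower (7.07%). With offsets for GC content and length, 2457 were higher (17.1%) and 2502 lower (17.4%), which makes 4959 in all (34.6%), against 3990 (27.8%) with library size alone. More than 2-fold changes were fewer, with 249 genes higher (1.74%) and 65 lower (0.453%). The CPM values of the groups did not overlap for 1213 genes that were higher in R-47 (8.46%) and for 1363 that were lower (9.5%).

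**Figure D1:**
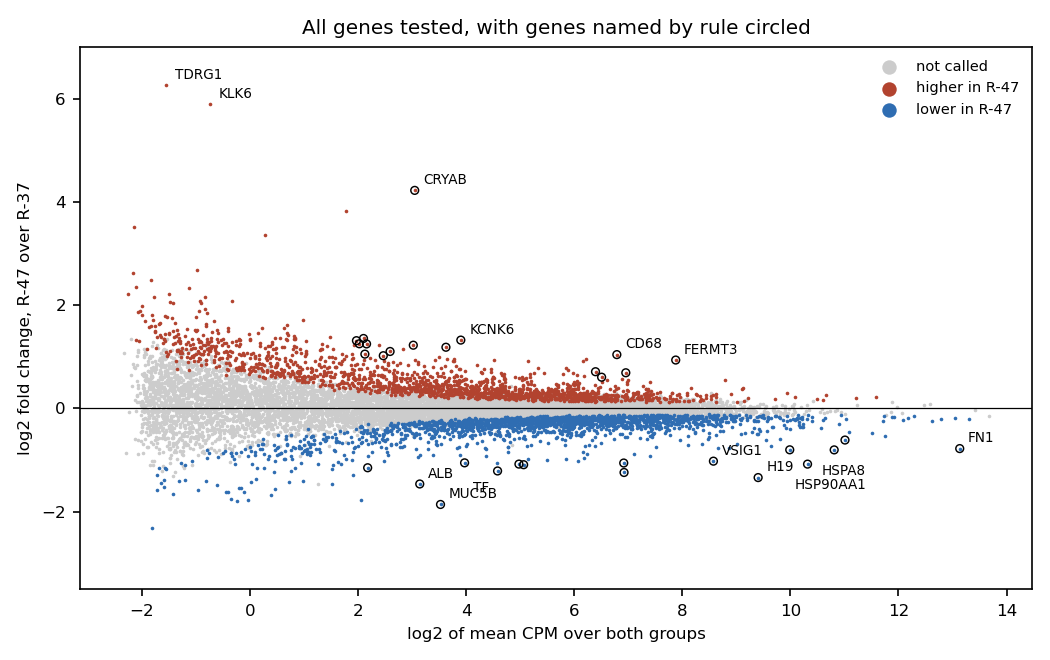
Log2 fold change of R-47 over R-37 against the log2 of mean CPM over both groups, 1 point per gene tested; red points were higher in R-47, blue points lower and grey points not called at adjusted p 0.05. CRYAB stands at a log2 fold change of 4.22, and the abundant genes at the right are mostly blue, with HSP90AA1, HSPA8 and FN1 among them.

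The direction of change went with how abundant a transcript was. Among 2203 genes with a mean of at least 100 CPM, 566 were lower in R-47 (25.7%) and 161 were higher (7.31%). Among 1904 genes under 1 CPM, 42 were lower (2.21%) and 220 were higher (11.6%), and these rare transcripts held 170 of the 249 genes that were more than 2-fold higher. Long noncoding RNAs leaned the same way as rare transcripts: of 1543 tested, 270 were higher (17.5%) and 51 lower (3.31%), with a median log2 fold change of 0.24. For 12544 protein-coding genes the counts were 1405 higher (11.2%) and 1834 lower (14.6%), with a median of -0.02.

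Base composition moved with the direction too. In the fifth of genes with the lowest GC content, 71 genes were higher and 505 lower, and in the fifth with the highest, 606 were higher and 130 lower. Each gene group below was therefore also counted with offsets for GC content and length, called the offsets from here on, and the counts are given wherever they or library size alone moved the split of higher and lower calls by more than 10 percentage points. The part of base composition in single genes was not tested. More genes were detected in R-47: the number of genes expected to have a count at equal depth was 18650 to 18877 in R-47 and 18105 to 18302 in R-37. The ranges did not overlap, and the mean difference was 529 genes (exact two-sided permutation test, p = 0.00794, the smallest that 5 against 5 libraries can give). This test was chosen after the data were seen.

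**Figure D2:**
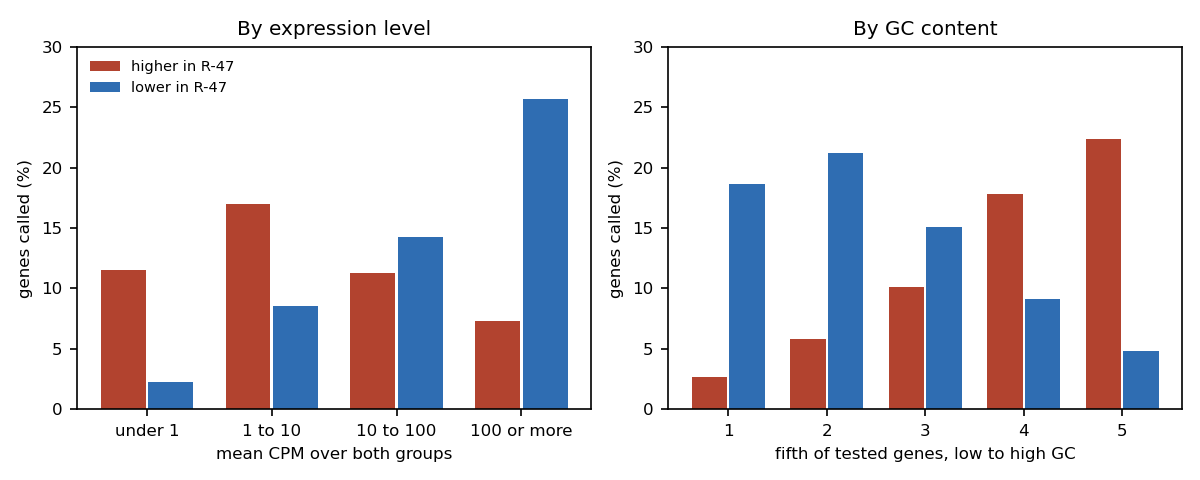
Share of genes called higher (red) and lower (blue) in R-47, by bins of mean CPM and by GC content in 5 groups of equal size. Lower calls reach 25.7% in the bin of at least 100 CPM, where higher calls are 7.31%, and higher calls outnumber lower ones in the group with the highest GC content.

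CRYAB had the largest fold change among called genes with an average log2 CPM of at least 2. It encodes αB-crystallin, a small heat shock protein that holds unfolded proteins and keeps them from clumping, and it lies at chr11:111908564-111923740 (GRCh38). It had 12.7, 17.4, 14.5, 17.4 and 16.5 CPM in R-47, against 0.751, 0.822, 0.679, 0.988 and 0.976 CPM in R-37. The lowest R-47 library stood far above the highest R-37 library, and the increase was 18.7-fold (log2 fold change 4.22 ± 0.13 SE, edgeR adjusted p = 1.46e-11). Scaled over all 20 libraries, CRYAB averaged 17.1 ± 2.23 CPM in R-47 and 0.919 ± 0.148 CPM in R-37, next to 62.2 ± 11.2 CPM in NFS1-knockdown cells and 54.1 ± 8.61 CPM in NC cells (SD, n = 5 each). Every library that had been at 47 °C, in either experiment, held at least 13.8 CPM, and no R-37 library held more than 1.08 CPM. HSPB2, another small heat shock gene that is the immediate neighbour of CRYAB, had 2 counts in R-47 and 2 counts in R-37, summed over 5 libraries each.

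HSP90AA1, the stress-inducible cytosolic HSP90, went the other way. It lies at chr14:102080742-102139749 and had 905, 815, 772, 817 and 791 CPM in R-47, against 1605, 1751, 1644, 1724 and 1941 CPM in R-37. All R-47 libraries were lower than all R-37 libraries (log2 fold change -1.08 ± 0.06 SE, edgeR adjusted p = 1.17e-08). In the second experiment it ran from 1171 to 1674 CPM in NFS1-knockdown cells and from 1357 to 1601 CPM in NC cells, although both had been at 47 °C, with the R-47 libraries at 843 to 981 CPM on the same scale. The levels of the second experiment thus lay above those of R-47, and the second experiment has no 37 °C libraries.

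KCNK6, a potassium channel with paired pore domains at chr19:38319845-38332076, had 21.4, 23.0, 22.5, 21.3 and 18.6 CPM in R-47, against 8.85, 8.58, 7.54, 9.05 and 8.67 CPM in R-37. The groups were well separated (log2 fold change 1.32 ± 0.08 SE, edgeR adjusted p = 2.91e-08). Cells of the second experiment held less of it than either group, at 1.07 to 2.26 CPM in NFS1-knockdown cells and 1.37 to 2.34 CPM in NC cells, with 8.22 to 9.86 CPM in R-37 on that scale. CD68, a glycoprotein of lysosomal membranes best known from macrophages, at chr17:7579638-7582111, had 127, 154, 166, 151 and 146 CPM in R-47, against 71.8, 71.9, 73.6, 76.1 and 68.1 CPM in R-37. The R-47 libraries were all higher (log2 fold change 1.04 ± 0.06 SE, edgeR adjusted p = 3.99e-08). Scaled over all 20 libraries, CD68 had 138 to 181 CPM in R-47 and 74.1 to 82.9 CPM in R-37, and the second experiment stood between their means, at 126 to 147 CPM in NFS1-knockdown cells and 116 to 125 CPM in NC cells.

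H19, an imprinted long noncoding RNA of fetal liver at chr11:1995176-2001266, had 429, 348, 400, 351 and 390 CPM in R-47, against 1137, 871, 1053, 980 and 814 CPM in R-37. It fell in R-47 with no overlap (log2 fold change -1.34 ± 0.08 SE, edgeR adjusted p = 4.79e-08). NFS1-knockdown cells held 93.3 to 156 CPM and NC cells 145 to 239 CPM, below all libraries of the first experiment. The order of the 4 groups thus differed from gene to gene.

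**Figure D3:**
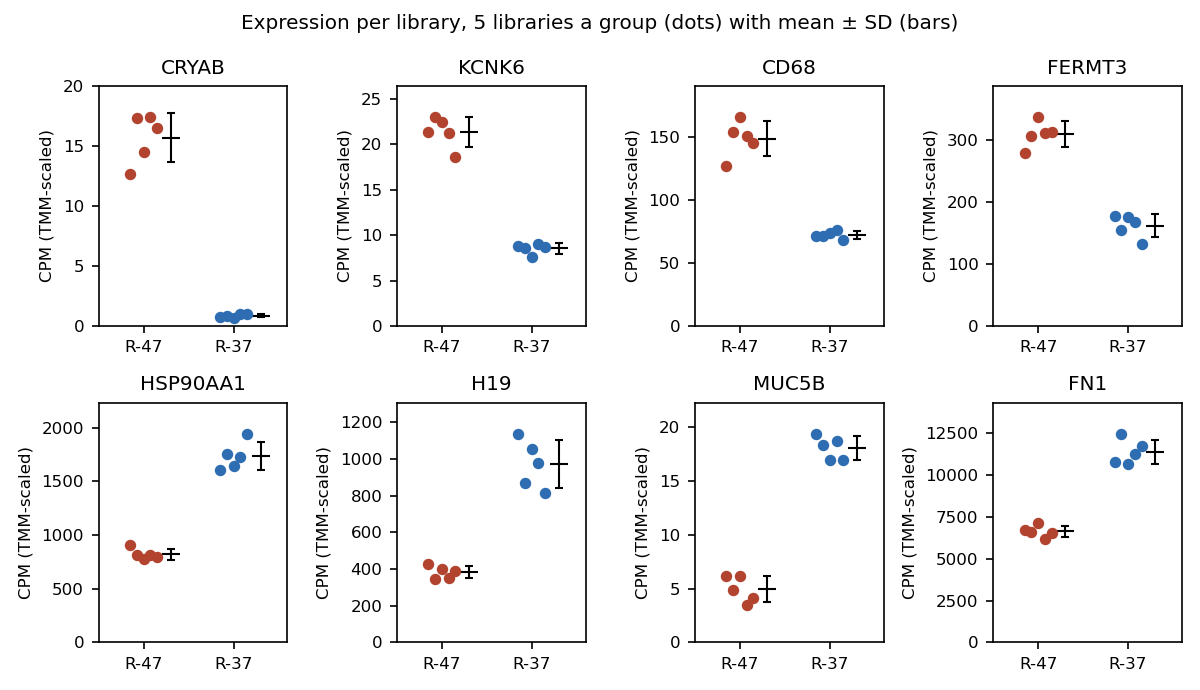
TMM-scaled CPM of 8 genes in each library of R-47 (red) and R-37 (blue), with 1 dot per library and a bar for the mean and SD of 5 libraries, on linear axes that start at 0. CRYAB, KCNK6, CD68 and FERMT3 in the upper row are higher in all R-47 libraries, and HSP90AA1, H19, MUC5B and FN1 in the lower row are lower in all of them.

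Beyond these, the genes with the largest changes among those of at least moderate abundance had varied roles. CDA, cytidine deaminase, had 5.54 to 6.17 CPM in R-47 and 2.41 to 3.47 CPM in R-37, and GPNMB, a glycoprotein of lysosomes and melanosomes, had 5.80 to 6.91 CPM in R-47 and 2.52 to 2.98 CPM in R-37. CACNA2D4, a calcium channel subunit, had 6.19 to 8.99 CPM in R-47 and 2.70 to 4.13 CPM in R-37. GLTPD2 and TRIM54 also more than doubled, with log2 fold changes of 1.22 and 1.10. FERMT3, the kindlin of blood cells that activates integrins, had the highest CPM among genes that rose by at least 1.5-fold. It had 279, 306, 336, 311 and 313 CPM in R-47, against 177, 155, 176, 168 and 132 CPM in R-37 (log2 fold change 0.94 ± 0.07 SE, edgeR adjusted p = 3.65e-07).

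Among the genes that fell most, SULF2, which removes sulfate groups from heparan sulfate, had 22.0, 22.7, 22.1, 18.6 and 21.4 CPM in R-47, against 45.6, 49.4, 45.0, 47.5 and 40.1 CPM in R-37. VSIG1, a cell adhesion protein of gastric epithelium, had 235 to 285 CPM in R-47 and 458 to 572 CPM in R-37. SLC28A2, a transporter of purine nucleosides, had 9.05 to 11.5 CPM in R-47 and 19.8 to 22.7 CPM in R-37. TM4SF4, a membrane protein of liver and gut, had 2.54 to 3.22 CPM in R-47 and 5.63 to 6.83 CPM in R-37. Absence of overlap between the groups was a condition for choosing these 4, and their log2 fold changes lay between -1.02 and -1.15.

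The cytosolic and mitochondrial folding machinery was lower in R-47 in almost all of its branches. Together, 77 chaperone and co-chaperone genes took 1.38 to 1.5% of all counts in R-47 and 1.83 to 1.89% in R-37. Most of that difference lay in HSP90AA1, HSP90AB1 and HSPA8. Of 12 HSP70 and HSP110 genes tested, 8 fell and 0 rose, with a median log2 fold change of -0.50 against -0.01 over all genes tested. Among 18 genes of HSP90 and its helpers, 9 fell and 2 rose, and among 20 J-domain and BAG proteins, which load clients onto HSP70 and release them, 8 fell and 0 rose (6 and 1 with library size alone, 8 and 1 with the offsets). Of 16 chaperonin and prefoldin subunits, which fold actin, tubulin and mitochondrial proteins, 11 fell and 0 rose. Lower calls covered 13.2% of all genes tested.

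HSPA8, the constitutive HSP70, had 1596, 1233, 1308, 1138 and 1267 CPM in R-47, against 2207, 2304, 2200, 2270 and 2441 CPM in R-37. HSPA1A and HSPA1B, the inducible HSP70 copies, fell too, with log2 fold changes of -1.24 and -0.89. Their coding sequences are nearly identical, so the split of reads between them is uncertain, and with all 20 libraries in 1 fit their calls were lost (edgeR adjusted p = 0.0543 and 0.176). HSPH1, an HSP110 that exchanges nucleotide on HSP70, had 71.3 to 93.7 CPM in R-47 and 148 to 190 CPM in R-37. HSPA4L and HSPA4, further members of that class, had log2 fold changes of -0.92 and -0.27. HSPA6, an HSP70 that is strictly stress-induced in humans, had 0.303, 1.13, 1.35, 1.37 and 1.02 CPM in R-47, against 0.590, 0.437, 0.757, 0.988 and 0.632 CPM in R-37, and these overlapped (edgeR adjusted p = 0.205).

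HSP90AB1, the constitutive cytosolic HSP90, had 1704, 1646, 1629, 1573 and 1606 CPM in R-47, against 2558, 2447, 2557, 2499 and 2416 CPM in R-37 (log2 fold change -0.61 ± 0.04 SE, edgeR adjusted p = 2.91e-08). Its helpers fell with it: AHSA1, which speeds the ATPase of HSP90, had 138 to 144 CPM in R-47 and 198 to 216 CPM in R-37, and STIP1, which bridges HSP70 and HSP90, had 428 to 464 CPM in R-47 and 596 to 668 CPM in R-37. CHORDC1, another HSP90 partner, had 46.7 to 57.8 CPM in R-47 and 79.0 to 107 CPM in R-37. PTGES3, the p23 co-chaperone, had 469 to 629 CPM in R-47 and 625 to 855 CPM in R-37, which overlapped, though it was called lower (log2 fold change -0.46, edgeR adjusted p = 0.00106). CDC37 and UNC45A were the 2 that rose, by 0.17 and 0.21 on the log2 scale, with overlapping groups, and both calls were lost when single libraries were left out (edgeR adjusted p of up to 0.120 and 0.0809).

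Among the J-domain and BAG proteins, DNAJA1 had 352, 287, 282, 279 and 296 CPM in R-47, against 503, 502, 493, 506 and 538 CPM in R-37. DNAJB1, the J-domain partner of inducible HSP70, had 134 to 157 CPM in R-47 and 202 to 210 CPM in R-37. ST13, which stabilizes the client-bound state of HSP70, had 137 to 156 CPM in R-47 and 192 to 218 CPM in R-37. BAG3, which passes HSP70 clients to autophagy, had 56.0 to 64.2 CPM in R-47 and 70.4 to 84.5 CPM in R-37, and its call was lost with all 20 libraries in 1 fit (edgeR adjusted p = 0.0630). In mitochondria, HSPD1 (HSP60) had 789, 687, 674, 714 and 716 CPM in R-47, against 1038, 1063, 1070, 1071 and 1139 CPM in R-37. Its lid HSPE1 had 18.4 to 28.5 CPM in R-47 and 26.2 to 36.1 CPM in R-37, which overlapped, and was called lower. CCT4 and CCT3, subunits of the cytosolic chaperonin TRiC, had log2 fold changes of -0.44 and -0.37.

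The small heat shock proteins did not share this direction. Of 7 tested, 3 rose and 1 fell. After CRYAB the next was HSPB3, a small heat shock protein of muscle, at 0.277 to 0.980 CPM in R-47 and 0 to 0.201 CPM in R-37 (edgeR adjusted p = 0.00520). HSPB11 rose by 0.23 on the log2 scale, a call that was lost when any of several libraries was left out (edgeR adjusted p of up to 0.0960). HSPB8, the partner of BAG3, had 32.0 to 34.9 CPM in R-47 and 39.8 to 40.8 CPM in R-37, and its call was lost with all 20 libraries in 1 fit (edgeR adjusted p = 0.0877). HSPB1, known as HSP27, had 333, 343, 340, 321 and 354 CPM in R-47, against 388, 244, 369, 336 and 225 CPM in R-37. The R-47 values lay inside the R-37 range (log2 fold change 0.11, edgeR adjusted p = 0.508), and with GC and length offsets the difference was -0.065. CRYAB and HSPB1 are both classed as targets of HSF1, and only CRYAB was called. HSF1 itself was 0.26 higher on the log2 scale, a call lost when 1 library was left out (edgeR adjusted p of up to 0.0636).

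Promoter sequences were looked up in RefSeq (GRCh38.p14) for the 250 bases before each annotated start, of which a gene can have more than 1. The 3-unit heat shock element was searched on both strands as GAA, TTC and GAA with 2 bases of any kind between neighbouring units, so that TTC, GAA and TTC at the same spacing also counts. It stood in 155 of 35116 windows (0.441%) and in 7 of the 62 cytosolic and mitochondrial chaperones that have a window (11.3%). Of those 7, HSP90AA1, HSP90AB1, HSPA8, HSPD1, CHORDC1 and DNAJB6 were lower in R-47 and HSPA6 was not called. Of 11281 tested genes with a window, 52 had this element (0.461%), the 7 chaperones among them. Of these 52, 15 were lower, the 6 chaperones among them, and 5 were higher. Of all genes tested, 13.2% were lower and 11.9% higher. Only this form of the element was searched, and CRYAB had no window. Sequences are shown for the 6 of the 7 chaperones above that were lower. The element is in capitals, with up to 20 bases on each side, in the direction of the gene.
HSP90AA1: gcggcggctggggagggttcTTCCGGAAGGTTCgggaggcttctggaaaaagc
HSP90AB1: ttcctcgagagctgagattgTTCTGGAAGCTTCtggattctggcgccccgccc
HSPA8: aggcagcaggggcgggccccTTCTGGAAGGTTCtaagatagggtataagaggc
HSPD1: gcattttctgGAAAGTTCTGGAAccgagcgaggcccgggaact
CHORDC1: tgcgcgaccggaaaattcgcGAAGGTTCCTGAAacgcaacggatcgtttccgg
DNAJB6: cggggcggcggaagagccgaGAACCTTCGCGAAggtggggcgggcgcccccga
These lie at chr14:102087100-102087152 on the minus strand, chr6:44247811-44247863 on the plus strand, chr11:123062159-123062211 on the minus strand, chr2:197500048-197500090 on the minus strand, chr11:90223067-90223119 on the minus strand and chr7:157336853-157336905 on the plus strand, in the order printed. The element began 88 bases before an annotated start of HSP90AA1, 112 before one of HSP90AB1 and 55 before one of HSPA8. In these 3 genes the element lies inside the annotated span of the gene, so these starts are not the outermost ones. HSPA8 and HSP90AA1, which share this element, differed in the size of their decrease, with log2 fold changes of -0.80 and -1.08. A match is a description of the letters and says nothing of binding in these cells.

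The folding enzymes of the endoplasmic reticulum were lower as a group as well. The 27 genes of the list took 0.562 to 0.599% of counts in R-47 and 0.766 to 0.787% in R-37, and of 26 tested, 20 fell and 1 rose, with a median log2 fold change of -0.44. HSPA5 (BiP), the HSP70 of the lumen, had 626, 583, 592, 560 and 590 CPM in R-47, against 924, 881, 931, 890 and 901 CPM in R-37 (log2 fold change -0.62 ± 0.04 SE, edgeR adjusted p = 5.40e-08). The protein disulfide isomerase PDIA6 had 124 to 144 CPM in R-47 and 191 to 201 CPM in R-37, and HYOU1, an HSP110 of the lumen, had 217 to 246 CPM in R-47 and 301 to 337 CPM in R-37. CALR and CANX, the lectin chaperones of glycoproteins, had log2 fold changes of -0.44 and -0.49. DNAJB9, a J-domain protein that is induced by XBP1, had 14.3 to 18.3 CPM in R-47 and 19.8 to 25.5 CPM in R-37. SIL1, which exchanges nucleotide on BiP, was the 1 gene that rose, with 28.2 to 32.0 CPM in R-47 and 21.7 to 26.8 CPM in R-37.

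The steps around folding moved the same way, by less. Of 29 genes of translocation and N-glycosylation, 17 fell and 0 rose (13 and 0 with library size alone). UGGT1, which tests whether glycoproteins are folded, had 107 to 110 CPM in R-47 and 135 to 164 CPM in R-37. RPN2, a subunit of the oligosaccharyltransferase, had 333 to 379 CPM in R-47 and 457 to 492 CPM in R-37. Its catalytic subunit STT3A had 221 to 228 CPM in R-47 and 271 to 307 CPM in R-37. Of 18 genes of ER-associated degradation, 6 fell and 1 rose, but 2 fell and 2 rose with library size alone. EDEM1 and EDEM3, which trim mannose from misfolded glycoproteins, had log2 fold changes of -0.28 and -0.46.

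The classical endoplasmic reticulum stress element was searched on both strands as CCAAT, then 9 bases of any kind, then CCACG. It stood in 26 of 35116 windows (0.0740%) and in 7 of the 24 lumenal folding genes with a window (29.2%), all 7 of them lower in R-47. Of 11281 tested genes with a window, 16 had it (0.142%). Of these 16, 10 were lower, the 7 folding genes among them, and 1 was higher. Lower calls covered 13.2% of all genes tested. The windows of 5 of the 7 are shown, since each of these genes is described here, with the element in capitals and up to 20 bases on each side.
HSPA5: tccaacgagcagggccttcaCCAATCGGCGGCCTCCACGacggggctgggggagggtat
HSP90B1: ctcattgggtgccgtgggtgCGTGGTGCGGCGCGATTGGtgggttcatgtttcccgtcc
CALR: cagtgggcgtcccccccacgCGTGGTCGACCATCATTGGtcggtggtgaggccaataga
CANX: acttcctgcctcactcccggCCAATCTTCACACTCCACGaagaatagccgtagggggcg
PDIA6: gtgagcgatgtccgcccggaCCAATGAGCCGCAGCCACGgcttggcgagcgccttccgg
They lie at chr9:125241371-125241429 on the minus strand, chr12:103930301-103930359 on the plus strand, chr19:12938364-12938422 on the plus strand, chr5:179698758-179698816 on the plus strand and chr2:10812833-10812891 on the minus strand, in the order printed. HSP90B1, the HSP90 of the lumen, had 816, 744, 712, 716 and 715 CPM in R-47, against 1216, 1289, 1247, 1287 and 1418 CPM in R-37, with no overlap. In HSP90B1 and CALR the element is read on the opposite strand, and both fell like the other 3.

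**Figure D4:**
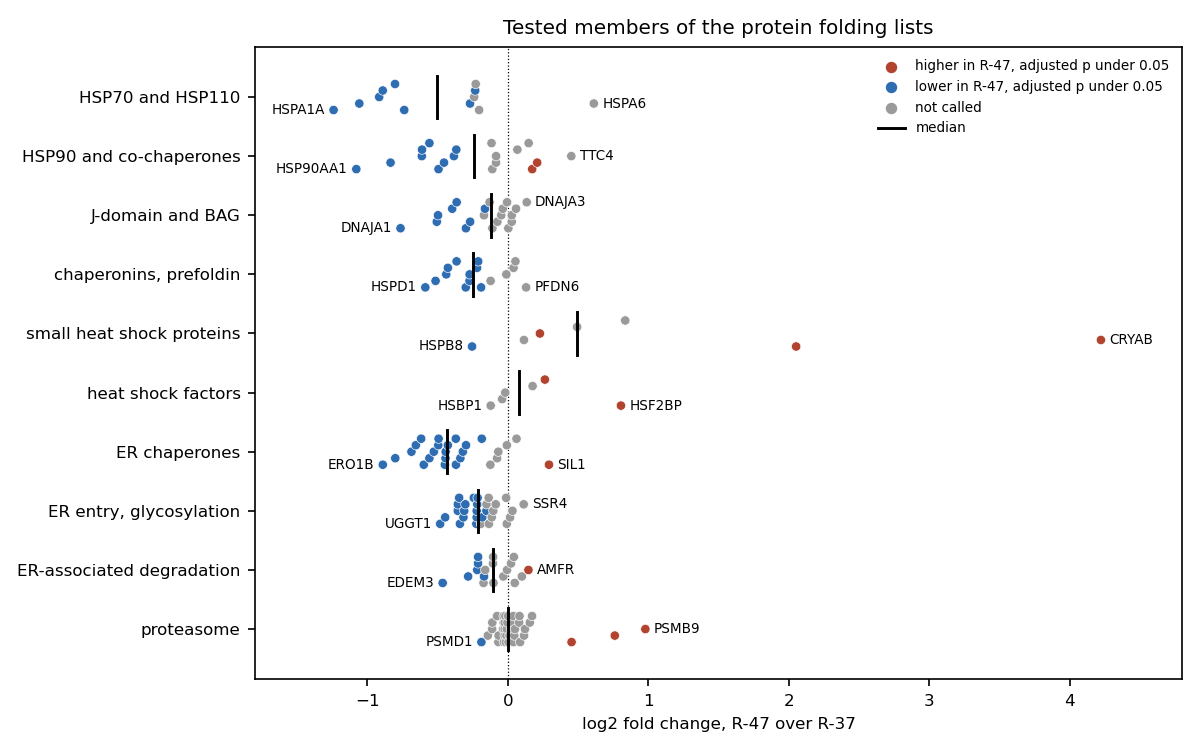
Log2 fold change of R-47 over R-37 for each tested member of the folding lists, 1 point per gene, red where called higher in R-47, blue where called lower and grey where not called, with a black line at the median of each list. The medians of the HSP70 and ER chaperone lists lie at -0.50 and -0.44, and the small heat shock list spreads from -0.26 for HSPB8 to 4.22 for CRYAB.

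Of 16 stress response transcription factors and their targets, 5 rose and 1 fell (5 and 2 with the offsets). The 1 that fell was XBP1, whose spliced form drives ER chaperones. It had 93.9, 86.0, 91.4, 86.0 and 93.7 CPM in R-47, against 127, 118, 122, 115 and 124 CPM in R-37. ATF4, the translational branch's factor, had 311 to 328 CPM in R-47 and 281 to 325 CPM in R-37, overlapping (edgeR adjusted p = 0.307). NUPR1, a stress-induced nuclear protein, had 65.2 to 87.2 CPM in R-47 and 37.1 to 60.3 CPM in R-37. PPP1R15A (GADD34), which directs the phosphatase of eIF2α, had 109 to 120 CPM in R-47 and 66.0 to 84.6 CPM in R-37. ATF3 had 17.6 to 22.4 CPM in R-47 and 12.7 to 17.7 CPM in R-37, and it was called higher although 1 library of each group overlapped (edgeR adjusted p = 0.00915).

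Protein destruction by the proteasome gave few calls. Of 38 subunits, 3 rose and 1 fell (10.5%, against 25.1% of all genes tested), and the 3 were PSMB8, PSMB9 and PSMB10, the catalytic subunits of the immunoproteasome. With library size alone 10 rose and 0 fell, and with the offsets 5 rose and 5 fell, so the count of the remainder rests on scaling. PSMB9 had 5.37, 5.96, 5.59, 7.36 and 6.49 CPM in R-47, against 4.08, 2.88, 3.03, 3.79 and 1.84 CPM in R-37, and PSMB10 had 17, 17.4, 18.6, 18.7 and 20.9 CPM in R-47, against 13.6, 9.40, 12.1, 11.8 and 7.67 CPM in R-37. Neither overlapped (log2 fold changes 0.98 and 0.76). PSMD1, a scaffold of the regulatory cap, was 0.19 lower on the log2 scale, and its call was lost with library size alone (edgeR adjusted p = 0.0774).

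Splicing factors were more often lower than higher. Of 31 SR and hnRNP genes, 12 fell and 3 rose, with library size alone 6 fell and 3 rose, and with the offsets 8 fell and 4 rose. SRSF1, the founding SR protein, had 237, 198, 199, 206 and 203 CPM in R-47, against 337, 334, 328, 342 and 366 CPM in R-37 (log2 fold change -0.71 ± 0.05 SE, edgeR adjusted p = 2.66e-07). HNRNPC had 457 to 504 CPM in R-47 and 645 to 687 CPM in R-37, HNRNPK had a log2 fold change of -0.35 and TRA2B one of -0.32. Those that rose were HNRNPL, with 603 to 659 CPM in R-47 and 435 to 515 CPM in R-37, HNRNPA1, and CIRBP, the cold-inducible RNA-binding protein. CIRBP had 189, 181, 184, 192 and 190 CPM in R-47, against 156, 133, 155, 147 and 130 CPM in R-37 (log2 fold change 0.38 ± 0.06 SE, edgeR adjusted p = 0.000194).

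The rest of the protein synthesis machinery gave few calls that held across scalings. Of 20 cytosolic tRNA synthetases, 6 fell and 2 rose (2 and 4 with library size alone). IARS1 and LARS1, which charge isoleucine and leucine, fell by 0.24 each on the log2 scale without overlap. For 28 ribosome biogenesis genes 2 fell and 0 rose, with library size alone 1 fell and 11 rose, and with the offsets 5 fell and 3 rose. The 2 were NOP58, a core protein of box C/D particles, and the nucleolar chaperone NPM1, with log2 fold changes of -0.28 and -0.19 and overlapping groups, and NPM1 lost its call with library size alone (edgeR adjusted p = 0.116). Among 30 mitochondrial ribosomal proteins 1 rose and 2 fell, and with library size alone 13 rose and 0 fell.

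Of 21 genes of secreted plasma proteins tested, 10 fell and 3 rose (61.9% called, against 25.1% of all genes tested), with a median log2 fold change of -0.54. TF, the gene of transferrin, had 10.8 to 16.6 CPM in R-47 and 32.5 to 34.9 CPM in R-37. SERPINA1, the antitrypsin gene, had 2.67, 1.68, 2.10, 2.28 and 2.15 CPM in R-47, against 6.84, 4.93, 5.09, 4.46 and 5.34 CPM in R-37, with every R-47 library lower. The neighbouring serpins SERPINA3 (antichymotrypsin) and SERPINA6 (corticosteroid-binding globulin) had log2 fold changes of -0.99 and -1.16. ITIH2, an inter-alpha-trypsin inhibitor heavy chain, had 128, 116, 117, 111 and 115 CPM in R-47, against 223, 237, 213, 210 and 226 CPM in R-37 (log2 fold change -0.92 ± 0.05 SE, edgeR adjusted p = 1.98e-08).

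The 3 that rose were ANGPTL4, IGFBP1 and KNG1. ANGPTL4, an inhibitor of lipoprotein lipase, had 4.57 to 5.82 CPM in R-47 and 1.67 to 3.09 CPM in R-37, and IGFBP1, a stress-responsive binder of insulin-like growth factors, had 20.3 to 23.8 CPM in R-47 and 14.6 to 17 CPM in R-37. KNG1, the gene of kininogen, had 0.468 to 0.825 CPM in R-47 and 0.180 to 0.313 CPM in R-37.

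Complement and coagulation genes moved in both directions. Of 29 tested, 8 rose and 9 fell (9 and 6 with library size alone). F5, coagulation factor V, had 22.5, 19.8, 21.1, 17.9 and 19.8 CPM in R-47, against 34.9, 48.4, 37.9, 42.1 and 50.5 CPM in R-37. C4BPA, which restrains complement, had 18.8 to 22.4 CPM in R-47 and 28.1 to 35.6 CPM in R-37. FGG, a fibrinogen chain, and F2, prothrombin, had log2 fold changes of -0.74 and -0.41. On the other side stood F3, tissue factor, with 21.3 to 24.1 CPM in R-47 and 16 to 20.1 CPM in R-37, and the early complement components C1R and C2, with log2 fold changes of 0.38 and 0.53. SERPIND1, heparin cofactor II, had 0.523 to 1.21 CPM in R-47 and 0.201 to 0.565 CPM in R-37, overlapping, and was called higher (edgeR adjusted p = 0.0102). CLU, the gene of clusterin, a secreted chaperone, had 549 to 594 CPM in R-47 and 492 to 586 CPM in R-37, which overlapped (edgeR adjusted p = 0.496).

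Of 13 apolipoprotein and lipoprotein assembly genes, 2 rose and 2 fell (2 and 1 with library size alone), or 30.8% beside 25.1% of all genes tested. APOL1, the trypanolytic factor of human serum, had 144 to 157 CPM in R-47 and 85.1 to 104 CPM in R-37, and APOL2 had 56.3 to 67.0 CPM in R-47 and 43.9 to 54.1 CPM in R-37. APOB, the scaffold of very low density lipoprotein, had 2.92 to 3.38 CPM in R-47 and 4.91 to 7.40 CPM in R-37. MTTP, which loads lipid onto APOB, was 0.30 lower on the log2 scale with overlapping groups, and that call was lost when single libraries were left out (edgeR adjusted p of up to 0.0933).

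Of 24 liver lineage transcription factors, 2 rose and 7 fell, which is 37.5% called against 25.1% of all genes tested (3 and 4 with library size alone). HNF4A rose by 0.28 and its paralog HNF4G fell by 0.31 on the log2 scale, each without overlap. NR1I2 (PXR), a sensor of foreign compounds, had 3.76 to 6.67 CPM in R-47 and 2.45 to 3.65 CPM in R-37, while CYP2B6, a drug-metabolizing enzyme that PXR is known to induce, had 7.87, 7.76, 7.67, 6.55 and 6.79 CPM in R-47, against 14.3, 12.7, 13.5, 13.2 and 14.6 CPM in R-37. The 2 therefore changed in opposite directions. Of 33 cytochrome P450 and conjugating genes, 5 rose and 4 fell (9 and 2 with library size alone), and these 27.3% lie near the 25.1% of all genes tested. CYP2E1, which oxidizes ethanol, had 0.774 to 1.52 CPM in R-47 and 0.188 to 0.517 CPM in R-37, and CYP1B1 and CYP4F11 had log2 fold changes of 0.41 and 0.32. CYP24A1, the vitamin D hydroxylase, fell by 0.32 on the log2 scale.

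The oncofetal list gave 1 higher and 5 lower of 15 tested (2 and 4 with library size alone). After H19, IGF2R, the receptor that clears IGF2 and is imprinted in mouse, had 326 to 349 CPM in R-47 and 385 to 428 CPM in R-37, and the RNA-binding protein IGF2BP2 had 45.4 to 51.7 CPM in R-47 and 54.6 to 58.9 CPM in R-37. AFP, given above, was not called (edgeR adjusted p = 0.602).

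Mucins formed a group with changes in both directions. Of 14 mucin and trefoil genes tested, 7 fell and 3 rose. MUC5B, a gel-forming mucin at chr11:1223066-1262172, had 6.15, 4.90, 6.14, 3.50 and 4.13 CPM in R-47, against 19.4, 18.4, 16.9, 18.7 and 16.9 CPM in R-37, and was 3.63-fold lower (log2 fold change -1.86 ± 0.13 SE, edgeR adjusted p = 9.56e-08). MUC5AC, the gel-forming mucin of stomach and airway, had 45.6, 41.8, 51.8, 38.0 and 44.1 CPM in R-47, against 88.1, 101, 85.3, 87.7 and 84.9 CPM in R-37. AGR2, the disulfide isomerase that folds gel-forming mucins, had 376 to 440 CPM in R-47 and 614 to 682 CPM in R-37. All 3 were lower in every R-47 library. The membrane mucins MUC13 and MUC20 and the trefoil peptide TFF1 were higher, with 38.8 to 49.2 CPM, 5.90 to 9.09 CPM and 5.28 to 6.05 CPM in R-47, against 25.7 to 29 CPM, 4.08 to 5.81 CPM and 3.21 to 4.64 CPM in R-37. MUC15, another membrane mucin, was lower (log2 fold change -1.16), and MUC1 was not called (edgeR adjusted p = 0.335).

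Lysosomal enzymes were more often called lower than higher. Of 38 tested, 14 fell and 4 rose (10 and 8 with library size alone). CTSL, a cysteine protease, had 601, 585, 594, 574 and 597 CPM in R-47, against 824, 748, 807, 781 and 749 CPM in R-37. CTSC, which activates serine proteases, had 172 to 187 CPM in R-47 and 232 to 252 CPM in R-37, and ARSB, a sulfatase of dermatan sulfate, had 8.30 to 10.1 CPM in R-47 and 12.3 to 15.2 CPM in R-37. CTSO, a further cysteine protease, had 17.9, 18.9, 15.4, 19.9 and 17.7 CPM in R-47, against 8.55, 10.3, 9.01, 8.89 and 10.9 CPM in R-37, so that 2 cathepsins of the same class moved in opposite directions. SMPD1, acid sphingomyelinase, had 40.1 to 45.9 CPM in R-47 and 28.6 to 31.7 CPM in R-37.

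Of 33 membrane and proton pump genes, 6 rose and 5 fell, and with library size alone 12 rose and 3 fell. CD68, given above, changed most. The proton pump subunits ATP6V0E1 and ATP6V1F had log2 fold changes of 0.24 and 0.30, and the calcium channel MCOLN1 had 15.9 to 19.1 CPM in R-47 and 11.6 to 16.2 CPM in R-37, overlapping in 1 library of each group. SCARB2, the receptor that carries glucocerebrosidase, and LAPTM4B fell by 0.24 and 0.28 on the log2 scale.

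Autophagy genes gave more higher than lower calls, with 9 rising and 1 falling of 34 (29.4%, beside 25.1% of all genes tested). MAP1LC3A, one of the LC3 proteins that coat autophagosomes, had 16.5, 17.1, 17.6, 15.4 and 19.1 CPM in R-47, against 9.76, 6.94, 8.30, 7.04 and 5.63 CPM in R-37 (log2 fold change 1.18 ± 0.12 SE, edgeR adjusted p = 3.81e-06). The cargo receptors SQSTM1 (p62) and OPTN rose by far less, with 2412 to 2625 CPM and 57.7 to 63.8 CPM in R-47, against 1959 to 2366 CPM and 52.1 to 55.0 CPM in R-37. CALCOCO2 (NDP52), another cargo receptor, was the 1 that fell, by 0.17 on the log2 scale, and its call was lost in most settings that left out a library (edgeR adjusted p of up to 0.0802).

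Interferon-related genes leaned upward at low levels of expression. Of 52 tested, 22 rose and 2 fell, with a median log2 fold change of 0.18, where higher calls covered 11.9% of all genes tested. ISG15, a ubiquitin-like protein that is attached to targets after interferon, had 16.8, 18.3, 16.9, 19.9 and 19.8 CPM in R-47, against 14.5, 8.76, 12.1, 10.9 and 8.18 CPM in R-37 (log2 fold change 0.75 ± 0.13 SE, edgeR adjusted p = 0.000521). DHX58 (LGP2), a sensor of viral RNA, had 2.14 to 2.75 CPM in R-47 and 0.590 to 1.88 CPM in R-37. IFI27 had 2.62 to 3.75 CPM in R-47 and 1.45 to 1.95 CPM in R-37, and DDX60, a helicase, had 15.0 to 17.5 CPM in R-47 and 10.4 to 12.3 CPM in R-37. IFIT3, which binds foreign RNA with its partners, had 6.17 to 6.88 CPM in R-47 and 3.93 to 5.51 CPM in R-37. None of these 5 overlapped, and 8.46% of all genes tested were higher in R-47 without overlap. ISG15, DHX58 and IFIT3 were chosen after their values were seen. TRIM25, the ligase that activates RIG-I, and TRIM14 fell by 0.20 and 0.21 on the log2 scale, and TRIM14 lost its call with library size alone (edgeR adjusted p = 0.0784).

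The interferon-stimulated response element was searched on both strands as TTTC, then 2 bases of any kind, then TTTC, and stood in 1061 of 35116 windows (3.02%). It was found in 19 of the 40 interferon genes with a window (47.5%), of which 9 rose and 1 fell. Of 11281 tested genes with a window, 371 had it (3.29%), the 19 interferon genes among them, and of these 371, 50 rose and 50 fell. Of all genes tested, 11.9% rose and 13.2% fell, and of the whole interferon list 22 of 52 rose. Windows are shown for 4 of the 9 interferon risers with the element, which are described above and whose groups do not overlap. The element is in capitals, with up to 20 bases on each side.
ISG15: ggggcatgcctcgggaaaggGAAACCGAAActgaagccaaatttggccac
DDX60: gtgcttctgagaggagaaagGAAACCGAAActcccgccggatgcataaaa
IFI27: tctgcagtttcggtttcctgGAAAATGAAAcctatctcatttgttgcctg
IFIT3: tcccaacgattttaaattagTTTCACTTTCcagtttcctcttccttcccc
They lie at chr1:1013370-1013419 on the plus strand, chr4:168318776-168318825 on the minus strand, chr14:94110621-94110670 on the plus strand and chr10:89327855-89327904 on the plus strand, in the order printed. IFIT3 has 2 annotated starts with a match, and 1 of them is shown. ISG15 and DDX60 carry the same letters in the element, and their log2 fold changes were 0.75 and 0.53.

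Genes of MHC class I antigen presentation changed in both directions. Of 19 tested, 7 rose and 4 fell (9 and 3 with library size alone). HLA-B, a class I heavy chain, had 5.69 to 6.53 CPM in R-47 and 3.81 to 5.38 CPM in R-37, and NLRC5, the transactivator of class I genes, had 7.25 to 7.54 CPM in R-47 and 4.68 to 5.99 CPM in R-37. The immunoproteasome subunits given above belong here too. Those that fell were the peptide-loading chaperones PDIA3, CANX and CALR, which are also members of the ER folding list, and the light chain B2M. B2M had 382 to 427 CPM in R-47 and 436 to 483 CPM in R-37, and its call was lost with library size alone and with GC and length offsets (edgeR adjusted p of up to 0.0945).

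**Figure D5:**
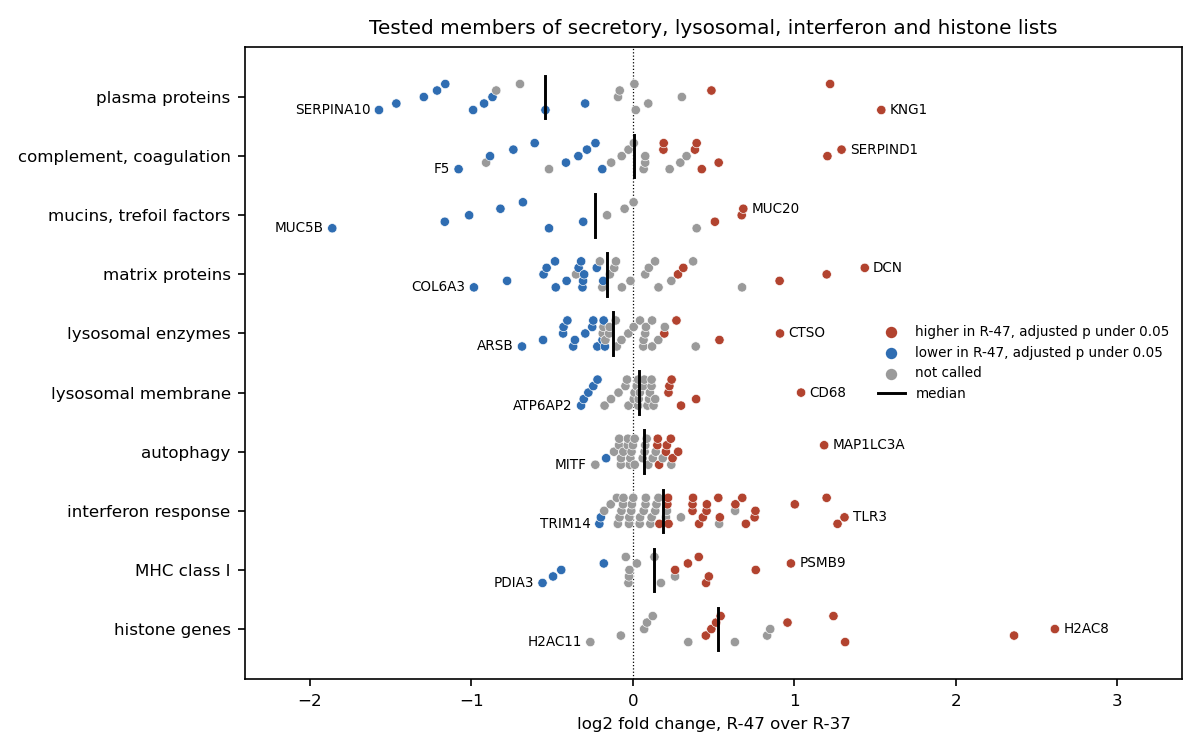
Log2 fold change of R-47 over R-37 for each tested member of secretory, matrix, lysosomal, interferon and histone lists, 1 point per gene, red where called higher in R-47, blue where called lower and grey where not called, with a black line at the median of each list. The plasma protein median lies at -0.54 and the interferon median at 0.18.

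The immediate early and AP-1 genes, which answer within an hour of a stimulus, were measured at 24 h. Of 30 tested, 7 rose and 3 fell (12 and 2 with library size alone, 8 and 8 with the offsets). FOS had 6.97 to 8.79 CPM in R-47 and 7.63 to 9.25 CPM in R-37, overlapping (edgeR adjusted p = 0.152). EGR1 had 24.9 to 34.1 CPM in R-47 and 32.2 to 36.8 CPM in R-37 and was called lower, with 1 R-47 library inside the R-37 range. FOSL1 had 140 to 163 CPM in R-47 and 96.2 to 110 CPM in R-37, FOSL2 had 146 to 156 CPM in R-47 and 119 to 131 CPM in R-37, and the factors KLF2 and KLF4 had log2 fold changes of 0.73 and 0.30. BATF3 fell, with 1.46 to 2.07 CPM in R-47 and 2.31 to 3.57 CPM in R-37.

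Feedback regulators of ERK signalling were divided. Of 29 tested, 4 rose and 7 fell (3 and 10 with the offsets). DUSP1 and DUSP10, phosphatases that act on stress-activated kinases, had 22.9 to 26.7 CPM and 10.2 to 12.4 CPM in R-47, against 12.7 to 15.8 CPM and 7.27 to 9.16 CPM in R-37. SPRY1 and SPRY4, inhibitors of receptor tyrosine kinase signalling, had 27.5 to 31.7 CPM and 23.2 to 26.9 CPM in R-47, against 39.4 to 42.0 CPM and 31.1 to 37.8 CPM in R-37. ETV1, a transcription factor stabilized by ERK, had 4.41, 4.18, 3.50, 3.45 and 2.97 CPM in R-47, against 6.76, 7.35, 7.60, 7.68 and 8.18 CPM in R-37. DUSP6, the ERK phosphatase, had 132 to 139 CPM in R-47 and 125 to 139 CPM in R-37, which overlapped (log2 fold change 0.02 ± 0.04 SE, edgeR adjusted p = 0.748).

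Wnt genes gave 2 higher and 7 lower of 20 tested (4 and 5 with library size alone). AXIN2, the standard readout of β-catenin activity, had 117 to 121 CPM in R-47 and 102 to 106 CPM in R-37, a rise of 0.18 on the log2 scale without overlap. GLUL, glutamine synthetase, another β-catenin target in liver, had 104 to 109 CPM in R-47 and 123 to 140 CPM in R-37, and so fell. Of the ligands, WNT7B rose and WNT5A fell, each by 0.37 on the log2 scale, and the secreted protein DKK3 fell by 0.63.

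Notch and TGF-β genes gave 5 in each direction of 28 tested (5 higher and 2 lower with library size alone, 5 and 10 with the offsets). TGFBI, BAMBI and SMAD7, which TGF-β is known to induce, rose by 0.24, 0.28 and 0.32 on the log2 scale, while its receptor TGFBR2 had 204 to 224 CPM in R-47 and 263 to 289 CPM in R-37.

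Of 26 chemokine and cytokine genes, 6 rose and 3 fell (8 and 2 with library size alone, 6 and 5 with the offsets). CCL26, eotaxin-3, had 29.9, 31.6, 25.9, 29.9 and 32.9 CPM in R-47, against 17.7, 14.8, 16.1, 14.4 and 15.6 CPM in R-37 (log2 fold change 0.93 ± 0.08 SE, edgeR adjusted p = 6.50e-07). CXCL16, a membrane-bound chemokine, had 48.4 to 58.4 CPM in R-47 and 31.5 to 35.8 CPM in R-37. CXCL8, interleukin 8, had 3.33 to 4.8 CPM in R-47 and 4.83 to 7.44 CPM in R-37, and SPP1, osteopontin, had 205 to 226 CPM in R-47 and 246 to 290 CPM in R-37.

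Cell cycle inhibitors and p53 targets gave 5 higher and 2 lower of 28 tested (9 and 0 with library size alone, 5 and 5 with the offsets), a share near the 25.1% of all genes tested. GADD45G, a growth arrest gene, had 2.65, 2.86, 2.50, 2.25 and 1.87 CPM in R-47, against 0.751, 1.08, 0.809, 0.797 and 0.488 CPM in R-37 (log2 fold change 1.62 ± 0.21 SE, edgeR adjusted p = 5.96e-05). TP53INP1 and TP53I3 rose by 0.48 and 0.52 on the log2 scale without overlap. CCNG1 and ZMAT3, both p53 targets, were called lower with overlapping groups, and lost their calls when single libraries were left out (edgeR adjusted p of up to 0.0675 and 0.0875).

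Of 18 replication-dependent histone genes tested, 9 rose and 0 fell. Their mRNAs mostly lack a poly(A) tail and the RNA was poly(A)-selected, so these values cover the tailed fraction, and near-identical copies make single genes uncertain. H1-2, a linker histone, had 16.9 to 20.5 CPM in R-47 and 8.30 to 10.1 CPM in R-37, and H2BC21 had 10.2 to 11.6 CPM in R-47 and 6.5 to 9.02 CPM in R-37. H2AJ, a histone gene that is expressed outside replication, moved likewise, with 104, 106, 102, 103 and 107 CPM in R-47, against 81.3, 49.7, 72.8, 65.4 and 49.8 CPM in R-37.

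Among 20 metallothionein and zinc transporter genes, 2 rose and 2 fell (4 and 0 with library size alone), fewer than the 25.1% of all genes tested. MT2A, the main metal-binding metallothionein, had 4.49, 3.92, 4.47, 6.19 and 5.31 CPM in R-47, against 2.82, 1.88, 2.82, 2.52 and 2.53 CPM in R-37, so it was higher in every R-47 library. The other 3 were the zinc importers SLC39A4, SLC39A10 and SLC39A14, each with a change under 0.3 on the log2 scale and a call that was lost when single libraries were left out (edgeR adjusted p of up to 0.0961, 0.107 and 0.0878). Of 18 potassium channel genes tested, 4 rose and 2 fell (4 and 1 with library size alone, 4 and 4 with the offsets). Besides KCNK6, KCNMB3, an accessory subunit of calcium-activated channels, had 5.47 to 6.55 CPM in R-47 and 3.12 to 4.57 CPM in R-37. KCNT2, a sodium-activated channel, had 0.715 to 1.36 CPM in R-47 and 1.20 to 2.42 CPM in R-37, overlapping, and was called lower (edgeR adjusted p = 0.0124).

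The extracellular matrix list leaned downward. Of 34 tested, 14 fell and 5 rose (11 and 7 with library size alone), and its members took 0.967 to 1.10% of counts in R-47 and 1.41 to 1.59% in R-37. Most of that share, and most of its difference between the groups, was FN1. COL6A3, a chain of collagen VI, had 25.6, 23.4, 25.8, 21.4 and 22.6 CPM in R-47, against 46.3, 48.4, 48.2, 48.2 and 44.1 CPM in R-37 (log2 fold change -0.98 ± 0.06 SE, edgeR adjusted p = 5.40e-08). FN1, fibronectin, had 6168 to 7148 CPM in R-47 and 10639 to 12446 CPM in R-37. NID1, which links laminin to collagen IV, had 98.4 to 104 CPM in R-47 and 137 to 157 CPM in R-37. COL18A1, the collagen of basement membranes that yields endostatin, had 121 to 155 CPM in R-47 and 138 to 248 CPM in R-37, overlapping, and was called lower (edgeR adjusted p = 0.00684).

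LAMB3, the β chain of laminin-332, went against the list. It had 87.4, 92.3, 102, 89.7 and 98.7 CPM in R-47, against 51.0, 50.5, 52.8, 53.3 and 42.9 CPM in R-37 (log2 fold change 0.91 ± 0.07 SE, edgeR adjusted p = 1.69e-07). THBS1, thrombospondin 1, had 156 to 168 CPM in R-47 and 121 to 140 CPM in R-37, and COL9A2 had 1.31 to 1.89 CPM in R-47 and 0.258 to 1.07 CPM in R-37.

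Of 33 integrin and focal adhesion genes, 8 rose and 6 fell (11 and 4 with library size alone). ITGB1, the β1 chain shared by the receptors for fibronectin, collagen and laminin, had 617, 520, 537, 578 and 542 CPM in R-47, against 720, 854, 744, 752 and 882 CPM in R-37. Its collagen-binding partner ITGA1 had 11.3 to 13.4 CPM in R-47 and 17.2 to 24.2 CPM in R-37, and ITGB5 had 222 to 250 CPM in R-47 and 270 to 318 CPM in R-37. Of the integrin genes known from blood cells, ITGB3 and ITGAM were called higher. ITGB3, the β3 chain, had 0.880 to 1.4 CPM in R-47 and 0.287 to 0.833 CPM in R-37. ITGAM, the αM chain, had 8.40 to 10.8 CPM in R-47 and 4.83 to 6.05 CPM in R-37. ITGAL and ITGA4 had too few counts to be tested, with 15 and 0 summed counts in R-47 and 10 and 1 in R-37. APBB1IP (RIAM), which recruits talin to integrins, had 4.82 to 6.06 CPM in R-47 and 1.72 to 2.66 CPM in R-37. With FERMT3 and CD79A (log2 fold change 1.35), ITGB3, ITGAM and APBB1IP belong to genes best known from blood cells, beside which the sums of the leukocyte list given above stand. Within that list, CD3D, CD3E and CD3G, chains of the T-cell receptor complex, each had 0 counts in R-47 and at most 2 counts in R-37.

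Actin and SRF target genes gave 10 higher and 2 lower of 30 tested (15 and 0 with library size alone). FLNC, a filamin of muscle, had 28.7 to 37.1 CPM in R-47 and 16.8 to 21 CPM in R-37, and MYL9, a regulatory light chain of myosin, had 2.98, 3.76, 3.82, 3.81 and 3.25 CPM in R-47, against 1.69, 0.976, 1.85, 1.69 and 1.26 CPM in R-37. ANKRD1, CCN1 and CCN2 are all targets of YAP and SRF. ANKRD1 had 1.89 to 3.12 CPM in R-47 and 0.701 to 1.38 CPM in R-37, CCN1 had 10.7 to 12.8 CPM in R-47 and 6.69 to 8.82 CPM in R-37, and CCN2 had 17.1 to 20.6 CPM in R-47 and 18.3 to 20.6 CPM in R-37. The first pair did not overlap, and CCN2 did (edgeR adjusted p = 0.360).

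Junction genes gave 6 higher and 7 lower of 26 tested (10 and 1 with library size alone). CLDN2, a pore-forming claudin, had 72.3 to 79.8 CPM in R-47 and 54.8 to 60.5 CPM in R-37, CLDN15 had 11 to 13.6 CPM in R-47 and 7.84 to 10.2 CPM in R-37, and ESRP2, the epithelial splicing factor, had 34.4 to 40.2 CPM in R-47 and 25.3 to 30 CPM in R-37. DSP, desmoplakin of desmosomes, had 434 to 454 CPM in R-47 and 482 to 555 CPM in R-37. KRT7, a keratin of bile duct epithelium, had 47.0, 43.8, 48.1, 43.5 and 48.0 CPM in R-47, against 29.2, 20.8, 28.2, 23.1 and 20.5 CPM in R-37 (log2 fold change 0.92 ± 0.09 SE, edgeR adjusted p = 4.95e-06). SOX9, a bile duct transcription factor, was lower, with 13.7 to 16.9 CPM in R-47 and 17 to 22.2 CPM in R-37, so duct markers did not move as 1 group: of 9 tested, 2 rose and 3 fell.

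Redox and polyamine enzymes gave 4 higher and 10 lower of 31 tested (7 and 6 with library size alone). SRXN1, which repairs overoxidized peroxiredoxins, had 575 to 657 CPM in R-47 and 450 to 499 CPM in R-37. PRDX3, a mitochondrial peroxiredoxin, had 129 to 150 CPM in R-47 and 169 to 196 CPM in R-37, and CAT, catalase, had 46.8 to 54.1 CPM in R-47 and 62.2 to 71.1 CPM in R-37. The enzymes at both ends of the polyamine pathway fell: ODC1, which starts synthesis, had 74.5 to 87.8 CPM in R-47 and 98.2 to 105 CPM in R-37, and SAT1, which starts breakdown, had 179 to 193 CPM in R-47 and 235 to 266 CPM in R-37. OSGIN1, an oxidative stress response gene outside the list, had 101 to 114 CPM in R-47 and 51.6 to 85.9 CPM in R-37.

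The nuclear-encoded respiratory chain showed 0 higher and 4 lower of 31 tested, near the 13.2% of all genes that were lower (1 and 1 with library size alone, 1 and 12 with the offsets). UQCRC2, a core subunit of complex III, had 168, 168, 162, 160 and 160 CPM in R-47, against 207, 208, 198, 207 and 209 CPM in R-37 (log2 fold change -0.33 ± 0.04 SE, edgeR adjusted p = 2.98e-05). The ATP synthase subunits ATP5F1A and ATP5F1C were 0.17 and 0.19 lower on the log2 scale, and both calls were lost with library size alone (edgeR adjusted p = 0.0772 and 0.0931). Of 24 small nucleolar RNA host genes, 2 rose and 3 fell, against 5 and 1 with library size alone, and these 20.8% lie below the 25.1% of all genes tested. SNHG14 had 24.1 to 26.1 CPM in R-47 and 27.0 to 34.3 CPM in R-37, and SNHG11 had 5.36 to 6.45 CPM in R-47 and 3.85 to 4.73 CPM in R-37.

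A pair of rare transcripts were present almost only on one side. KLK6, a secreted serine protease at chr19:50958631-50969591, had 37, 32, 60, 62 and 38 counts in R-47, against 0, 2, 1, 0 and 0 counts in R-37. In the second experiment it had 43 to 151 counts in NFS1-knockdown libraries and 40 to 94 counts in NC libraries. TDRG1, a long noncoding RNA named for testis, at chr6:40378337-40379893, had 31, 18, 41, 17 and 25 counts in R-47, against 0, 0, 0, 0 and 1 counts in R-37, with 51 to 103 counts in NFS1-knockdown libraries and 40 to 80 counts in NC libraries. Both were seen in every library that had been at 47 °C and had at most 2 counts in any library kept at 37 °C. Both genes were chosen after their values were seen.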

How the data were processed

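Poly(A) RNA of MHCC-97H cells was extracted with TRIzol and made into libraries with the VAHTS Universal V6 kit, per the labels' protocols. The authors deposited a table of raw read counts per gene symbol and a table of FPKM values for all 20 libraries. The submitters' processing notes name fastp, HISAT2, HTSeq and build hg38, but the annotation, tool versions and strandedness of counting were not given in the sources used here, so reads of antisense or overlapping genes and of near-identical copies (HSPA1A and HSPA1B, histone genes) may be shared. The deposited FPKM values were used only to derive the gene length behind the length offset. The counts of the 10 R-47 and R-37 libraries were tested with edgeR 4.0.16 in R 4.3.3: genes were filtered with a minimum count of 10, scaled by TMM, and tested with the quasi-likelihood F test without covariates, with Benjamini-Hochberg adjustment over all genes tested and a threshold of 0.05. CPM values are TMM-scaled, and the SE of a log2 fold change is its size divided by the square root of F. Alternatives used limma 3.58.1 and DESeq2 1.42.0. GC content came from GENCODE release 29 transcripts for 94.2% of tested genes, and positions came from RefSeq GRCh38.p14, which matched 94.9% of symbols. Promoters were the 250 bases before each RefSeq start, of which a gene can have more than 1.

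Named genes were the 5 marker genes of the comparison, the 12 highest and 12 lowest fold changes among called genes with an average log2 CPM of at least 2, no overlap between groups and a standard gene symbol, the 5 of highest CPM changed at least 1.5-fold in each direction, and in each of 48 lists up to 3 called members of smallest adjusted p in each direction. A further 51 genes were chosen as examples after their values were seen. Some genes that these rules name are not reported here. The members, lists and motifs were chosen with earlier results of these data known. The scripts were tested on simulated data, and summaries and figures were made in Python 3.11.15 (numpy 2.4.6, pandas 2.3.3, matplotlib 3.10.9). Intervals are not given for counts, and the depth of 32219946 to 39689939 counts per library leaves genes under 1 CPM with few counts.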

Additional observations from a re-analysis of the deposited data

Results flagged for a closer look

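In groups of 5 libraries, 29 of 542 gene and group combinations held 1 library far from the others, counting a gap to the nearest library of more than 0.710 of the group's range. Chance alone flags about 1 in 20 groups. In R-47, replicate 1 was the high library for HSPH1 (gap 0.750 of the range), DNAJA1 (0.771), SRSF1 (0.798) and PDIA6 (0.812), which are all lower in R-47, and it was the low library for APOL1 (0.795), TRIM14 (0.781) and TP53I3 (0.833). HSPH1 had 93.7 CPM there with a group median of 75.5 CPM, and DNAJA1 352 CPM with a median of 287 CPM, so in both genes replicate 1 lay nearest to R-37 while the groups stayed apart. TRIM14 is lower in R-47, and there replicate 1 lay farthest from R-37. The same library had the highest R-47 value of HSPA8 and HSP90AA1.

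Replicate 2 of R-47 was apart for SPRY1 (0.725) and BOLA2B (0.991), replicate 3 for C2 (0.837), IGF2R (0.780), FLNC (0.791), ATP5F1C (0.781) and FOS (0.806), replicate 4 for F11R (0.764), TXNIP (0.833), MUC1 (0.791) and MCOLN1 (0.741), and replicate 5 for SNHG14 (0.785) and FAM156A (0.811). In R-37, replicate 5 was apart for MRPL3 (0.838), LAMB3 (0.728), MYH10 (0.835), SNHG16 (0.941), HYOU1 (0.795) and TDRG1 (1, from a single count), replicate 2 for GPNMB (0.862) and MUC5AC (0.798), and replicate 3 for UQCRC2 (0.763).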

How the results depend on the processing

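With library size alone, without TMM, 2976 genes were higher and 1014 lower in R-47, against 1714 and 1890 with TMM, since the median log2 fold change of all genes moved to 0.07 from -0.01. With a minimum count of 50, 73 genes were more than 2-fold higher and 32 more than 2-fold lower, against 249 and 65, as fewer rare genes were tested. Leaving out 1 library at a time gave 1238 to 2158 genes higher, 1417 to 2176 lower, 217 to 299 more than 2-fold higher and 59 to 75 more than 2-fold lower. The other settings kept each of these 4 counts within 1.5 times: DESeq2, limma-voom, DESeq2 size factors, no filter, all 20 libraries in 1 fit, the offsets for GC content and length, and the replicate block. With the replicate number as a block, 1437 genes were higher and 1490 lower, and with block and offsets 2379 and 2410. No label says that the numbers pair the libraries. Deviations of libraries that share a number correlated at -0.20, 0.03, 0.19, -0.04 and -0.13. These few values cannot decide whether libraries were paired, since other differences among libraries also enter them. Of 271 named genes, 50 lost a call in at least 1 setting. HSPB1, which was not called, turned to -0.0646 with the offsets and to -0.0629 with the block and the offsets; the cause was not tested. Genes under 1 CPM rest on few counts per library, which limits their precision.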

Other observations

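Calls of more than 2-fold rested in 3 genes, chosen after their values were seen, on 1 or 2 libraries. BOLA2B had 13, 1175, 18, 19 and 22 counts in R-47, against 16, 37, 12, 4 and 13 counts in R-37, and it was called higher (log2 fold change 3.83, edgeR adjusted p = 0.0294). Without R-47 replicate 2 the log2 fold change was 0.07 (edgeR adjusted p = 0.934). SMIM11 had 16, 187, 8, 2 and 203 counts in R-47, against 2, 8, 11, 5 and 12 counts in R-37, and without R-47 replicate 2 or replicate 5 its call was lost (edgeR adjusted p = 0.0552 and 0.0587). FAM156A had 71, 63, 71, 67 and 91 counts in R-47, against 89, 114, 514, 393 and 35 counts in R-37. Its decrease was called (edgeR adjusted p = 0.0221) and was lost without R-37 replicate 3 or replicate 4 (edgeR adjusted p = 0.0646 and 0.0694). BOLA2B, SMIM11 and FAM156A each have a close copy elsewhere in the genome, and how reads of such copies were assigned was not tested.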
